A study of Mus musculus with 16 samples.

Results

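The collagen genes of the mouse hypothalamus are described here as all genes whose symbol is Col, a number, the letter a and a number in the gene lists of 16 single-cell libraries. The rule gave 44 genes of 28683 in all. It used symbols and no measured value. The gene set was checked against the reference annotation (GENCODE vM21, GRCm38), in which all 44 genes were found and the coding sequence of each held at least 1 run of glycine codons (GGN) at every 3 codons, the repeat that gives collagen its triple helix. The longest such run in a gene had from 23 glycine codons in *Col26a1* to 344 in *Col3a1*, with a median of 58.5. Each glycine codon stands for 1 repeat of 3 codons.

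Collagens are secreted or membrane-bound proteins in which 3 chains wind around each other, so that the genes of a type encode chains that assemble with one another. Fibrillar collagens (types I, II, III, V, XI, XXIV and XXVII) form the fibres of connective tissue, type IV forms the network of basement membranes around vessels, type VI forms beaded filaments, and type VIII forms other networks. The fibril-associated collagens with interrupted helices (FACITs, among them types IX, XII, XIV and XVI) sit on fibrils, types XIII, XVII, XXIII and XXV span the cell membrane, and the multiplexins (types XV and XVIII) lie at basement membranes. In the brain, fibrous collagen is known from the meninges and the large vessels, and type IV collagen from the basement membrane that endothelial cells and pericytes share with astrocyte endfeet. The tissue between the cells is otherwise poor in fibres.

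The cells came from the hypothalamus and preoptic area of 16 mice, 1 Drop-seq library per mouse, a droplet method that tags each captured transcript with the barcode of its cell and its own molecular identifier (UMI). The groups were 3 wild-type mice given oil (WT_Oil), 5 wild-type mice given tamoxifen (WT_Tamoxifen), 4 Esr1cKO mice given oil (Esr1cKO_Oil) and 4 given tamoxifen (Esr1cKO_Tamoxifen), all labelled female and of a mixed CD-1;129P2 background. Esr1cKO mice are homozygous for a floxed *Esr1* allele (Esr1tm1Sakh). They also carry a Cre made from a bacterial artificial chromosome with *Nkx2-1* sequences. *Esr1*, which encodes estrogen receptor alpha, is thus deleted in the *Nkx2-1* lineage and not in every cell of the region. The wild-type mice were Cre-negative littermates. All mice were 8 to 10 weeks old at the start, received 28 daily injections of tamoxifen at 0.1 mg/kg or of vehicle, and were collected 2 hours after the last one, 4 mice a day on 4 days.

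Of the deposited barcodes, 55675 cells were kept, whose genes numbered over 200 and under 4000 and whose mitochondrial share of UMIs was below 15%. Libraries held 1746 to 5568 kept cells with a median of 563 to 819 UMIs per cell, so a single cell gave 0 or 1 UMI of nearly any collagen and values were summed over the cells of a type in a library, as counts per 1000000 UMIs of those cells (CPM). Several libraries stood apart. S10 (WT_Oil) and S11 (Esr1cKO_Tamoxifen) listed no barcode under 100 genes where the other libraries went down to 20, libraries S13 to S16 shared 303 to 359 barcodes per pair where other pairs shared 0 to 42, and S12 (Esr1cKO_Oil) had 3 *Xist* UMIs where the others had 404 to 1826, which goes against its label as female. *Esr1* in neurons was at 44.1 to 86.5 CPM in the wild-type and 17.1 to 71.2 in the Esr1cKO libraries, so the genotype could not be read from it library by library.

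The sequences of 5 members show what the rule did not use and the family shares. Below are 54 bases of the coding strand of 1 member each of the fibrillar, basement membrane, beaded filament, FACIT and transmembrane collagens, from within the longest run, with the glycine codons in capitals (GENCODE vM21 transcripts).
*Col3a1*: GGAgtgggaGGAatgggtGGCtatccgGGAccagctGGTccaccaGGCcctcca
*Col4a1*: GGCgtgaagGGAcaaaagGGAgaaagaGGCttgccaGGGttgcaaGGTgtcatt
*Col6a1*: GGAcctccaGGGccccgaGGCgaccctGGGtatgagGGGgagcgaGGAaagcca
*Col9a3*: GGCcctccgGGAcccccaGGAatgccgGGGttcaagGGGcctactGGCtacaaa
*Col25a1*: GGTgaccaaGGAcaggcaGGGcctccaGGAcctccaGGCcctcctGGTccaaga
The runs were longest in the fibrillar collagens, at 337 to 344 codons in 9 of 11 genes, and shorter in the others, at 40 codons in *Col4a1*, 87 in *Col6a1* and 113 in *Col9a3*.

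Over all kept cells the 44 genes gave 45612 of 59373446 UMIs, or 768 CPM, from 483 CPM in library S11 to 1085 in S1. At least 200 UMIs were found for 42 genes, the lowest of them *Col6a4* with 216, while *Col17a1* had 171 and *Col10a1*, a collagen of growth-plate cartilage, had 20. Cells were sorted into 9 types by clustering without any collagen gene among the variable genes or markers, although the clusters rest on other genes of the same cells. Each type had at least 7 of its listed markers at more than 2-fold over the other cells, and the endothelial cells also had 7 markers of mural cells. Collagen transcripts made up the largest part of the RNA in fibroblasts (967 cells, marked by *Dcn*, *Lum* and *Igf2*), with 4519 ± 935 CPM (SD, n = 16 libraries). Ependymal cells had 1625 ± 502, mural cells 1203 ± 198, endothelial cells 911 ± 141, polydendrocytes 760 ± 114, astrocytes 609 ± 115, microglia 593 ± 138, neurons 561 ± 133 and oligodendrocytes 396 ± 107. In this order, ependymal and mural cells differed by less than the ependymal SD, and astrocytes, microglia and neurons by less than any of their own. Fibroblasts were 1.74% of the cells and 11.5% of the collagen UMIs, so most collagen transcripts lay in other cells. Barcodes with 200 or fewer genes (small barcodes) had 514 CPM of collagens. This is above the oligodendrocyte mean and close to the means of neurons, microglia and astrocytes. Small barcodes can hold free RNA, broken cells and shallow whole cells, which were not told apart, so they are no clean measure of background. In S10 and S11 they had at least 100 genes.

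Each type was set against the rest of its library with edgeR's quasi-likelihood test, the library as a block, and Benjamini-Hochberg adjustment over all genes tested, with a threshold of 0.05. Because these comparisons call many genes of any kind, the share of all genes called higher is given beside each count. In fibroblasts 28 of 41 tested collagens were higher and 2 lower, where 17.6% of all genes were higher. Ependymal cells had 17 higher and 11 lower of 42 (31.8% of all genes higher), and mural cells 14 higher and 9 lower of 40 (22.3%). In the remaining types the collagens were called higher no more often than genes in general: 12 of 42 in endothelial cells (36.1%), 10 of 40 in astrocytes (35.2%), 9 of 38 in polydendrocytes (29.2%), 8 of 40 in oligodendrocytes (36.1%), 7 of 43 in neurons (40.1%) and 4 of 38 in microglia (34.6%). Neurons had 27 collagens lower, 62.8% of those tested, where 40.5% of all genes were lower. The median log2 fold change over the tested collagens was 1.51 in fibroblasts, against -0.05 over all genes, 0.13 in ependymal and 0.04 in mural cells, and between -0.14 and -0.64 in the other types. Of the 43 genes that could be tested, 5 were higher in 1 type, 11 in 2, 19 in 3, 5 in 4 and 1, *Col22a1*, in 5. *Col17a1* and *Col6a4* passed in none of the 3 and 5 types where they could be tested, and *Col10a1* was too low for any test. The sum of the calls, 109, was 107 without libraries S10 and S11, 111 without cells whose barcode occurs in more than 1 library and 90 by DESeq2, which left 8 of the 14 in mural cells.

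**Figure D1:**
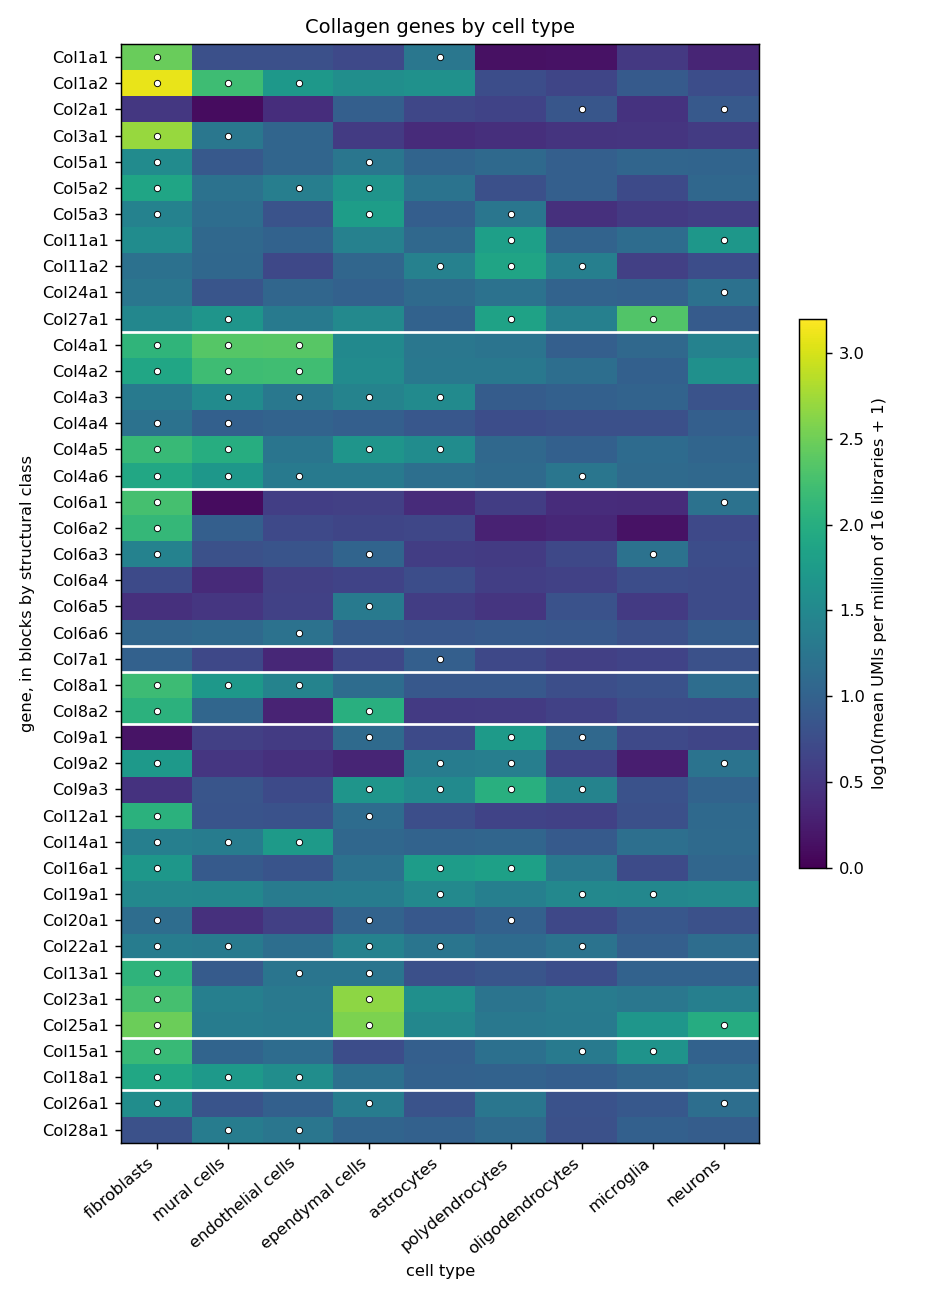
Levels of the 42 collagen genes with at least 200 UMIs (rows, grouped by class) in 9 cell types (columns). Values are log10 of the mean CPM over 16 libraries plus 1, with white dots where a gene was higher than in the other cells of the library. Fibroblasts carry 28 of the 109 dots, and the fibrillar, basement membrane and transmembrane blocks each have a different column of high values.

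The classes divided among the cells. Fibrillar collagens were at 2263 ± 694 CPM in fibroblasts and at no more than 291 ± 97.4, in mural cells, elsewhere. Basement membrane collagens were at 578 ± 147 in mural cells, 459.7 ± 153 in fibroblasts and 458 ± 102 in endothelial cells, which lie within a spread of each other, and at no more than 166 ± 41.1, in ependymal cells, elsewhere. Transmembrane collagens were highest in ependymal cells (841 ± 479.8) and fibroblasts (601 ± 239). Beaded filament collagens were at 354 ± 125 in fibroblasts and at no more than 46.5 ± 14.9, in ependymal cells, elsewhere. FACITs reached the same mean in fibroblasts (301 ± 86.3) and polydendrocytes (301 ± 35.5).

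The transcripts of the common connective tissue fibres marked the fibroblasts. *Col1a1* and *Col1a2* encode both chains of type I collagen and *Col3a1* the single chain of type III. Here and below, 3 values in a row are the lowest, the median and the highest library of a type. In fibroblasts they were 754, 1149.8 and 1859 CPM of *Col1a2*, 249.6, 406 and 1456 of *Col3a1* and 97.7, 278 and 468 of *Col1a1*. No library of any other type reached these ranges for *Col1a2* or *Col3a1*. The log2 fold change over the other cells was 7.17 ± 0.15 for *Col3a1*, 6.46 ± 0.17 for *Col1a1* and 6.03 ± 0.11 for *Col1a2* (adjusted p = 1.18e-178, 2.42e-142 and 1.04e-204). At least 1 UMI of *Col1a2* was found in 60.3% (57.1% to 63.4%) of fibroblasts (median 758 UMIs per cell) and in 0.347% (0.237% to 0.489%) of oligodendrocytes (median 753), a type that should lack it, with exact 95% intervals for counting error. Thinned to 500 UMIs per cell, the shares were 43.9% and 0.143%.

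Mural cells followed the fibroblasts in type I and III transcripts at a lower level, with 0, 157 and 327 CPM of *Col1a2* and 0, 18.7 and 53.6 of *Col3a1*. Both were higher than in the other cells (log2 fold change 2.11 ± 0.14 and 0.97 ± 0.31), while *Col1a1* had 8 UMIs in mural cells and did not pass the test (-0.64 ± 0.52, adjusted p = 0.328). *Col1a2* in endothelial cells passed the test (0.45 ± 0.18, adjusted p = 0.0243), but 340 of its 406 UMIs lay in a finer cluster of 1507 cells led by *Gkn3*, *Rgs5* and *Higd1b*, which had all 8 endothelial and 9 mural or pericyte markers. Where types were taken from the finer clusters, which leaves that one unnamed, the log2 fold change turned to -1.63. In astrocytes *Col1a1* was higher (1.21 ± 0.20, 2.898, 14.97 and 56.2 CPM) where *Col3a1* was lower (-2.89 ± 0.29) and *Col1a2* did not pass (0.13 ± 0.11, adjusted p = 0.288). The small barcodes held 31.5 CPM of *Col1a2*, 9.35 of *Col3a1* and 6.73 of *Col1a1*, and the type means above these were those of fibroblasts for all 3 genes, of mural cells for *Col1a2* and *Col3a1*, of endothelial cells for *Col1a2* and *Col3a1*, of astrocytes for *Col1a2* and *Col1a1*, and of ependymal cells for *Col1a2*.

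Type V collagen, which is built into type I fibrils and limits their width, was shared by fibroblasts and ependymal cells. All 3 genes were higher in both: *Col5a1* by 2.23 ± 0.31 and 1.09 ± 0.19, *Col5a2* by 2.501 ± 0.24 and 1.84 ± 0.14, and *Col5a3* by 1.44 ± 0.35 and 3.54 ± 0.17 on the log2 scale. *Col5a3* was at 12.7, 66.6 and 98.2 CPM in ependymal cells and 0, 18.4 and 96.6 in fibroblasts, so the ependymal libraries were the higher ones with overlap. *Col5a2* was also higher in endothelial cells (0.99 ± 0.16), and *Col5a3* in polydendrocytes, where it had 72 UMIs.

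The cartilage fibril collagens, types II and XI, and *Col24a1* were each higher in neurons or in glia. Type XI collagen, which initiates cartilage fibrils, was split between its genes. *Col11a1* was higher in neurons (1.34 ± 0.08, 24.6, 47.7 and 73.5 CPM) and polydendrocytes (1.28 ± 0.14), and lower in 5 types. Pooled over the cells of a type, *Col11a1* was highest in polydendrocytes (64.0 CPM), followed by neurons (47.2). *Col11a2* was higher in polydendrocytes (2.67 ± 0.12, 30.9, 74.5 and 111 CPM), oligodendrocytes (1.29 ± 0.14) and astrocytes (1.13 ± 0.17), and lower in neurons (-2.18 ± 0.14). Polydendrocytes, the oligodendrocyte precursors, were thus the 1 type with both genes higher. *Col2a1*, the chain of cartilage fibrils, was low everywhere, with 274 UMIs in all, and was higher in neurons (0.71 ± 0.17) and oligodendrocytes (0.90 ± 0.25). *Col24a1* passed the test as higher in neurons alone, by 0.42 ± 0.12 on 254 UMIs. Its pooled level was not highest there. Polydendrocytes had 15.8 CPM on 65 UMIs and fibroblasts 15.2 on 17 UMIs, both above neurons.

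*Col27a1* was highest in microglia, the macrophages of the brain tissue. Its level there was 173, 214 and 271 CPM, above every library of every other of the 9 types. The highest library of pericytes, a finer class of the mural cells given below, lay above this range. The log2 fold change in microglia was 3.91 ± 0.09, adjusted p = 4.30e-35 (edgeR). A UMI was found in 13.6% (12.7% to 14.6%) of microglia and in 0.5303% (0.415% to 0.667%) of astrocytes. It was also higher in polydendrocytes (1.08 ± 0.11) and mural cells (0.86 ± 0.21), and lower in neurons (-2.76 ± 0.16), but in cells with more than 500 genes the mural value turned to -0.27. A finer cluster of 783 cells was led by *S100a8*, known from neutrophils, and by *Lyz2* and *Cd74*. It also carried 5 perivascular macrophage and 4 microglia markers. The marker rule named it perivascular macrophages, but its leading genes are mixed and that name is not used here. None of the 9 types is kept for such cells, so values of the microglia type, *Col15a1* and *Col6a3* among them, can include them. The cluster had 0, 0 and 86.98 CPM of *Col27a1* as lowest, median and highest of the libraries with at least 10 such cells, which was not tested.

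The vessels carried type IV collagen. *Col4a1* and *Col4a2* encode the chains of the common vascular network, and *Col4a1* was at 142, 235 and 321 CPM in endothelial cells and 0, 230.0 and 387 in mural cells. Its log2 fold change was 3.31 ± 0.08 in endothelial, 2.41 ± 0.12 in mural cells and 1.43 ± 0.17 in fibroblasts, where the range was 19.2, 115 and 288. The value of 0 in mural cells was library S4, whose 25 mural cells held 9187 UMIs, so that 0 allows up to 327 CPM. *Col4a2* went with it, at 2.67 ± 0.09, 1.96 ± 0.14 and 0.88 ± 0.19. Both genes were lower in all 6 other types, with *Col4a1* between -2.46 in oligodendrocytes and -0.71 in ependymal cells. A UMI of *Col4a1* was found in 20.5% (19.6% to 21.5%) of endothelial cells and 0.726% (0.563% to 0.921%) of oligodendrocytes at like depth. Neurons still held 39.8 ± 10.02 CPM of *Col4a2*, above the 26.7 of the small barcodes. Endothelial values here and below include cells of the *Gkn3*-led cluster with mural markers, and its part in them was not tested except where said. With types from the finer clusters, which leave it unnamed, 242 of 248 called values over all types held. Another 5 no longer passed, and 1, *Col1a2* in endothelial cells, changed sign.

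The other type IV chains, known from the kidney and other specialised basement membranes, had lower levels and wider patterns. Mural cells had all 6 genes of the type higher and fibroblasts 5. *Col4a5* was higher in fibroblasts (3.10 ± 0.18), mural cells (2.53 ± 0.19), ependymal cells (1.15 ± 0.15) and astrocytes (1.11 ± 0.12), and *Col4a6* in fibroblasts (2.71 ± 0.22), mural cells (1.84 ± 0.25), endothelial cells (0.62 ± 0.16) and oligodendrocytes (0.64 ± 0.17). *Col4a3* was higher in astrocytes (1.68 ± 0.14, 11.5, 31.4 and 65.2 CPM), ependymal, mural and endothelial cells. *Col4a4* passed the test in fibroblasts and mural cells on 17 and 19 UMIs (1.27 ± 0.45 and 1.20 ± 0.42).

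Type VI collagen assembles from *Col6a1*, *Col6a2* and a longer chain, *Col6a3* to *Col6a6*. *Col6a1* and *Col6a2* were high in fibroblasts, at 55.9, 179.8 and 365 and 0, 139.6 and 282 CPM (log2 fold change 5.24 ± 0.20 and 5.70 ± 0.23). Of the long chains, *Col6a3* was higher in fibroblasts (2.30 ± 0.40), microglia (2.02 ± 0.25, 59 UMIs) and ependymal cells (0.87 ± 0.29), *Col6a5* in ependymal cells alone (2.62 ± 0.24, 0, 20.6 and 37.5 CPM) and *Col6a6* in endothelial cells alone (1.42 ± 0.24). *Col6a4* passed in none of the 5 types tested. Neurons had *Col6a1* higher (0.90 ± 0.27) and *Col6a2* lower (-0.71 ± 0.20). Mural cells had 1 UMI of *Col6a1*, and its log2 fold change there was -3.30 ± 0.95.

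Type VIII collagen, a short-chain network collagen of vessel walls and the cornea, was split. *Col8a1* was higher in fibroblasts (3.82 ± 0.19), mural cells (1.99 ± 0.25) and endothelial cells (1.5001 ± 0.18). *Col8a2* was higher in ependymal cells (4.36 ± 0.19, 25.5, 114 and 186 CPM) and fibroblasts (3.53 ± 0.21, 0, 117 and 196) and lower in all 7 other types, with 10 UMIs in 7175 endothelial cells. *Col7a1*, the anchoring fibril collagen of skin, was higher in astrocytes alone (1.24 ± 0.21) on 68 UMIs.

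Type IX collagen, a cartilage FACIT of 3 different chains, had all 3 genes higher in the oligodendrocyte precursors. *Col9a1* was at 34.2, 54.9 and 72.4 CPM in polydendrocytes (log2 fold change 3.21 ± 0.15), *Col9a3* at 55.2, 103 and 179 (2.56 ± 0.11) and *Col9a2* at 10.3, 21.9 and 33.1 (1.05 ± 0.18). The lowest polydendrocyte library of *Col9a1* lay above the mean of every other type. Oligodendrocytes kept *Col9a1* (0.97 ± 0.18) and *Col9a3* (0.74 ± 0.14) higher and had *Col9a2* lower (-1.40 ± 0.26). Fibroblasts showed the opposite, with *Col9a2* higher (2.58 ± 0.27) and 1 and 2 UMIs of *Col9a1* and *Col9a3*, the 2 collagens lower in fibroblasts. Ependymal cells had *Col9a3* (1.01 ± 0.18, 18.1, 33.8 and 148 CPM) and *Col9a1* (0.57 ± 0.23) higher, although *Col9a1* was at -0.0142 there in the 3 WT_Oil libraries alone. *Col9a3* was also higher in astrocytes (0.99 ± 0.13), and *Col9a2* in astrocytes (1.499 ± 0.18) and neurons (0.65 ± 0.13).

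The other FACITs fell to different cells. *Col12a1*, which binds type I fibrils, was higher in fibroblasts (4.14 ± 0.23, 0, 109 and 246 CPM) and ependymal cells (0.62 ± 0.21). *Col14a1*, its close relative, was highest in endothelial cells (2.62 ± 0.18, 25.8, 47.1 and 89.5 CPM), with 38.7 in the median library without the *Gkn3*-led cluster, and was higher in mural cells (1.10 ± 0.28) and fibroblasts (0.81 ± 0.33). *Col16a1* was higher in astrocytes (2.15 ± 0.14, 20.1, 56.8 and 97.8 CPM), polydendrocytes (1.77 ± 0.13) and fibroblasts (1.51 ± 0.25). *Col19a1* was spread evenly: its type means lay between 20.6 in endothelial cells and 31.3 in neurons, all under the 47.5 CPM of the small barcodes, although oligodendrocytes (0.70 ± 0.12), microglia (0.42 ± 0.18) and astrocytes (0.39 ± 0.12) passed the test, and the astrocyte value turned to -0.30 in the WT_Oil libraries alone. *Col20a1* was higher in fibroblasts (1.38 ± 0.49), ependymal cells (1.12 ± 0.26) and polydendrocytes (0.72 ± 0.27). *Col22a1* was higher in 5 types by 0.48 to 1.09, with type means of 8.299 to 25.6 CPM around the 9.95 of the small barcodes, and in the WT_Oil libraries alone it was at -0.13 in astrocytes and -0.43 in mural cells.

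Transmembrane collagens were higher in the ependymal cells, which line the third ventricle, and in fibroblasts. *Col23a1* was at 163, 440.4 and 828 CPM in ependymal cells (log2 fold change 4.17 ± 0.12, adjusted p = 7.84e-27) and in 27.5% (25.95% to 29.1%) of the cells, against 1.35% (1.03% to 1.73%) of polydendrocytes. In fibroblasts *Col23a1* was at 24.1, 178 and 342 CPM (1.88 ± 0.16). *Col25a1*, the precursor of the collagenous component of amyloid plaques and known from neurons, was at 44.2, 266 and 1006 in ependymal cells and 48.3, 309.9 and 636 in fibroblasts, each range wide, and at 48.9, 90.9 and 135 in neurons. Its log2 fold change was 2.54 ± 0.19, 2.32 ± 0.14 and 0.53 ± 0.15. Neurons held 1718 of its 4369 UMIs, the largest count of any type. *Col13a1* was higher in fibroblasts (3.87 ± 0.21, 48.3, 117 and 197 CPM), endothelial cells (0.80 ± 0.18) and ependymal cells (0.78 ± 0.21).

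The multiplexins and the 2 remaining genes gave lower levels. *Col18a1*, the source of endostatin, was higher in fibroblasts (2.43 ± 0.24), endothelial cells (1.92 ± 0.17, 16.9, 34.8 and 56.96 CPM) and mural cells (1.74 ± 0.24). *Col15a1* was higher in fibroblasts (3.45 ± 0.20, 11.8, 152 and 268), microglia (2.21 ± 0.17, 10.54, 38.8 and 88.8) and oligodendrocytes (0.85 ± 0.18), and did not pass in endothelial (-0.07 ± 0.23) or mural cells (-0.90 ± 0.44). *Col26a1* was higher in fibroblasts (2.01 ± 0.30), ependymal cells (1.30 ± 0.19) and neurons (0.39 ± 0.12). *Col28a1*, known from the sheath of peripheral nerves, was higher in mural (1.45 ± 0.36) and endothelial cells (1.34 ± 0.17).

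**Figure D2:**
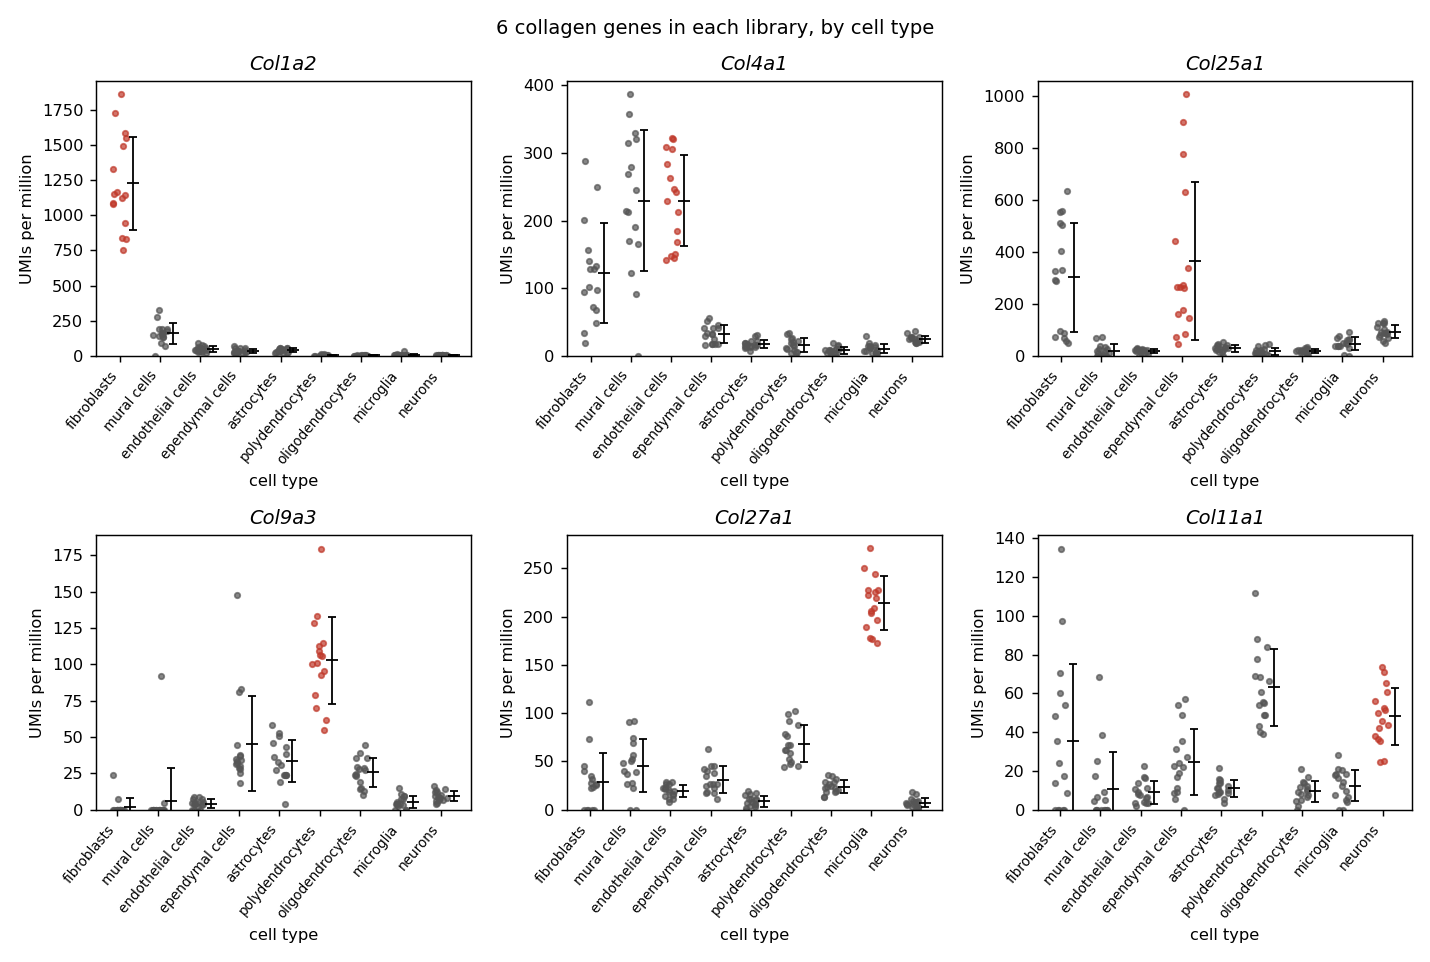
CPM of 6 collagens in 9 cell types, each point 1 of 16 libraries and each bar a mean ± SD, with the type described in the text in red. *Col1a2* in fibroblasts, *Col27a1* in microglia and *Col4a1* in endothelial cells stand clear of most types, while *Col25a1* in ependymal cells spreads from 44.2, 266 and 1006 as lowest, median and highest.

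Several of these types hold finer classes, which were compared within libraries in the same way at a resolution of 0.5. Tanycytes, the ventricular cells marked by *Rax*, *Scn7a* and *Gpr50*, were set against ciliated ependymal cells, marked by *Ccdc153* and *Tmem212*, in 16 libraries. Of 9 tested collagens 6 were higher in tanycytes and 2 lower, where 57.4% of all genes differed. *Col25a1* was at 145, 796 and 1533 CPM in tanycytes and 0, 22.8 and 93.99 in ciliated cells (log2 fold change 4.88 ± 0.18), and *Col23a1* at 817, 1074 and 1290.2 and 0, 76.7 and 98.2 (3.83 ± 0.13), with no overlap between the classes in either gene. *Col11a1* (2.76 ± 0.39), *Col5a2* (1.36 ± 0.23), *Col4a5* (1.20 ± 0.24) and *Col9a3* (1.12 ± 0.24) were higher in tanycytes too. The reverse held for *Col8a2*, at 0, 0 and 16.7 in tanycytes and 62.7, 169.5 and 237 in ciliated cells (-5.04 ± 0.29), and for *Col5a3* (-3.01 ± 0.29). The high ependymal values of *Col23a1* and *Col25a1* thus lay in one class and those of *Col8a2* and *Col5a3* in the other. *Col4a1* did not differ beyond its error (-0.57 ± 0.31, adjusted p = 0.107).

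The fibroblasts split into a cluster of 730 cells led by *Dcn*, *Igf2* and *Lum* and one of 237 cells led by *Prg4*, with 5 of the fibroblast markers. The comparison was made after the clusters were seen and rests on 10 libraries with at least 10 cells of each. Of 13 tested collagens 6 were higher and 6 lower in the *Prg4*-led cells, where 37.7% of all genes differed. *Col25a1* was at 102, 1044 and 1934 CPM in the *Prg4*-led and 0, 20.8 and 114 in the *Dcn*-led cells (log2 fold change 5.44 ± 0.38), so the fibroblast signal of this gene came from the smaller cluster, with 388 of 404 UMIs. *Col8a2* (3.82 ± 0.39), *Col6a2* (1.73 ± 0.28), *Col6a1* (1.47 ± 0.31), *Col12a1* (1.19 ± 0.43) and *Col23a1* (1.16 ± 0.31) were higher with it. *Col13a1* (-4.21 ± 0.52), *Col15a1* (-4.13 ± 0.62), *Col1a1* (-2.83 ± 0.30), *Col4a1* (-2.70 ± 0.45), *Col3a1* (-1.95 ± 0.25) and *Col1a2* (-1.38 ± 0.18) were lower. *Col1a2* was still at 165, 756 and 1013 CPM in the *Prg4*-led cells, against 912, 1441 and 2129.9 in the *Dcn*-led ones. *Col8a1* did not pass (0.74 ± 0.38, adjusted p = 0.133).

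Smooth muscle cells (*Acta2*, *Myh11*) and pericytes (*Kcnj8*, *Abcc9*) could be compared in 3 collagens over 15 libraries, where 54.7% of all genes differed. *Col27a1* was lower in smooth muscle cells (-2.75 ± 0.42, 0, 10.2 and 50.98 CPM against 0, 131 and 362 in pericytes), and so was *Col1a2* (-0.56 ± 0.24). *Col4a1* did not pass (-0.23 ± 0.18, adjusted p = 0.293), with 0, 219 and 426 CPM in smooth muscle cells and 88.8, 241 and 479 in pericytes. In the oligodendrocyte lineage, *Gpr17* positive precursors, which are about to mature, were set against *Pdgfra* positive ones, and all 3 tested collagens differed, where 47.6% of all genes did. *Col9a3* was at 135, 357 and 849 CPM in the *Gpr17* positive and 32.5, 55.1 and 92.2 in the *Pdgfra* positive cells (2.93 ± 0.16), without overlap. *Col9a1* was higher as well (1.65 ± 0.25) and *Col27a1* lower (-0.85 ± 0.29). Arterial endothelial cells were not compared. No finer cluster named endothelial met their markers, and the unnamed *Gkn3*-led cluster was not scored for them.

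**Figure D3:**
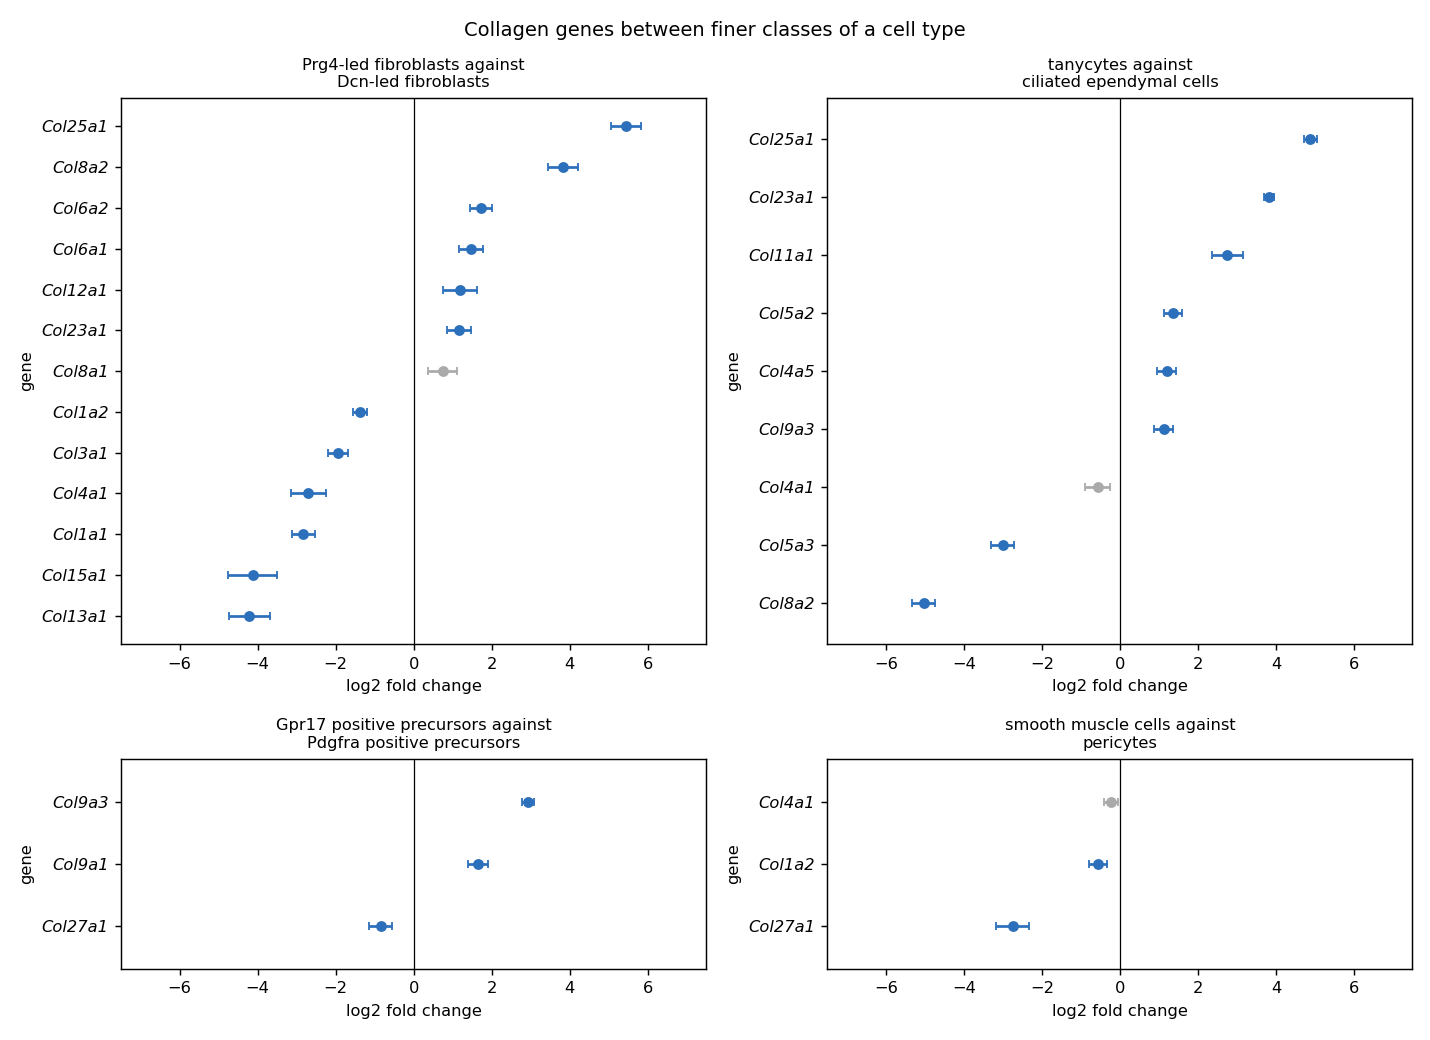
Log2 fold changes ± SE of each tested collagen between finer classes of a cell type, blue where past the threshold and grey where not. *Col25a1* has the largest positive value both in tanycytes and in *Prg4*-led fibroblasts, and *Col8a2* is lower in the first and higher in the second.

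Neurons were clustered again into 25 groups, each called by its leading gene, and each was compared with the other neurons of its library. Of 402 tests of a collagen in a cluster, 36 were higher and 25 lower, where 13.3% of the tests of all genes were called. *Col25a1* differed in 13 clusters. It was higher in the *Slc6a3*-led (2.64 ± 0.46, 82 cells), *Pmch*-led (1.74 ± 0.31), *Vipr2*-led (1.38 ± 0.12), *Lrrtm4*-led (1.003 ± 0.16) and *Meis2*-led cells (0.37 ± 0.12), and lower in the *Gnrh1*-led (-1.33 ± 0.12), *Foxb1*-led, *Ppp1r17*-led, *Oxt*-led, *Pomc*-led, *Tac2*-led, *Moxd1*-led and *Hdc*-led cells. *Vipr2*-led neurons, which carry *Vip* and *Nms* like the suprachiasmatic nucleus, had 225 ± 90.4 CPM (SD, n = 16 libraries) against 43.8 ± 18.2 in the *Gnrh1*-led cells. The *Slc6a3*-led and *Pmch*-led cells were shallow, with medians of 380 and 367 UMIs.

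*Col11a1* had another pattern over the clusters. It was higher in the *B230323A14Rik*-led (2.11 ± 0.40), *Trh*-led (1.04 ± 0.24), *Lrrtm4*-led (1.01 ± 0.19), *Foxb1*-led (0.93 ± 0.22) and *Fezf1*-led cells (0.72 ± 0.17) and lower in the *Agrp*-led (-3.25 ± 0.999), *Tac2*-led (-2.17 ± 0.59), *Vipr2*-led (-1.79 ± 0.29), *Crym*-led, *Pomc*-led and *Gnrh1*-led cells. *Vipr2*-led cells thus had *Col25a1* higher and *Col11a1* lower, and *Foxb1*-led cells the reverse. *Vipr2*-led cells also had *Col9a3* higher (1.95 ± 0.33) and *Col4a1* lower (-1.58 ± 0.37).

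Among neurons, *Col6a1* was higher only in the *Crym*-led cells among 15 tested clusters. These cells, which also carry *Nrgn* and *Neurod2*, had it at 76.5 ± 81.1 CPM in 10 libraries (log2 fold change 3.09 ± 0.30). These 264 cells gave 72 of the 256 neuronal UMIs of *Col6a1*, and they had *Col6a2* (2.15 ± 0.65), *Col5a2* (1.79 ± 0.48) and *Col23a1* (1.70 ± 0.32) higher too. They carry 1 fibroblast marker, *Dcn*, at more than 2-fold over the other neurons, and 26.1% of them came from library S4. *Pomc*-led cells had *Col4a4* (2.89 ± 0.49) and *Col2a1* (1.93 ± 0.62) higher and 0 UMIs of *Col6a1*. *Tac2*-led cells had *Col24a1* higher (2.07 ± 0.51). *Lrrtm4*-led cells, a cluster led by the very long genes *Lrrtm4*, *Lingo2* and *Sgcz*, had 11 of 18 tested collagens higher and 0 lower, where 29.6% of all genes were higher and 35.5% lower in them, from 0.81 for *Col19a1* to 1.39 for *Col8a1*. *Col1a2* was higher in the *Ptgds*-led cells (2.005 ± 0.63, 12 UMIs), which carry 31 markers of other cell types at more than 2-fold, and their part in it was not tested.

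**Figure D4:**
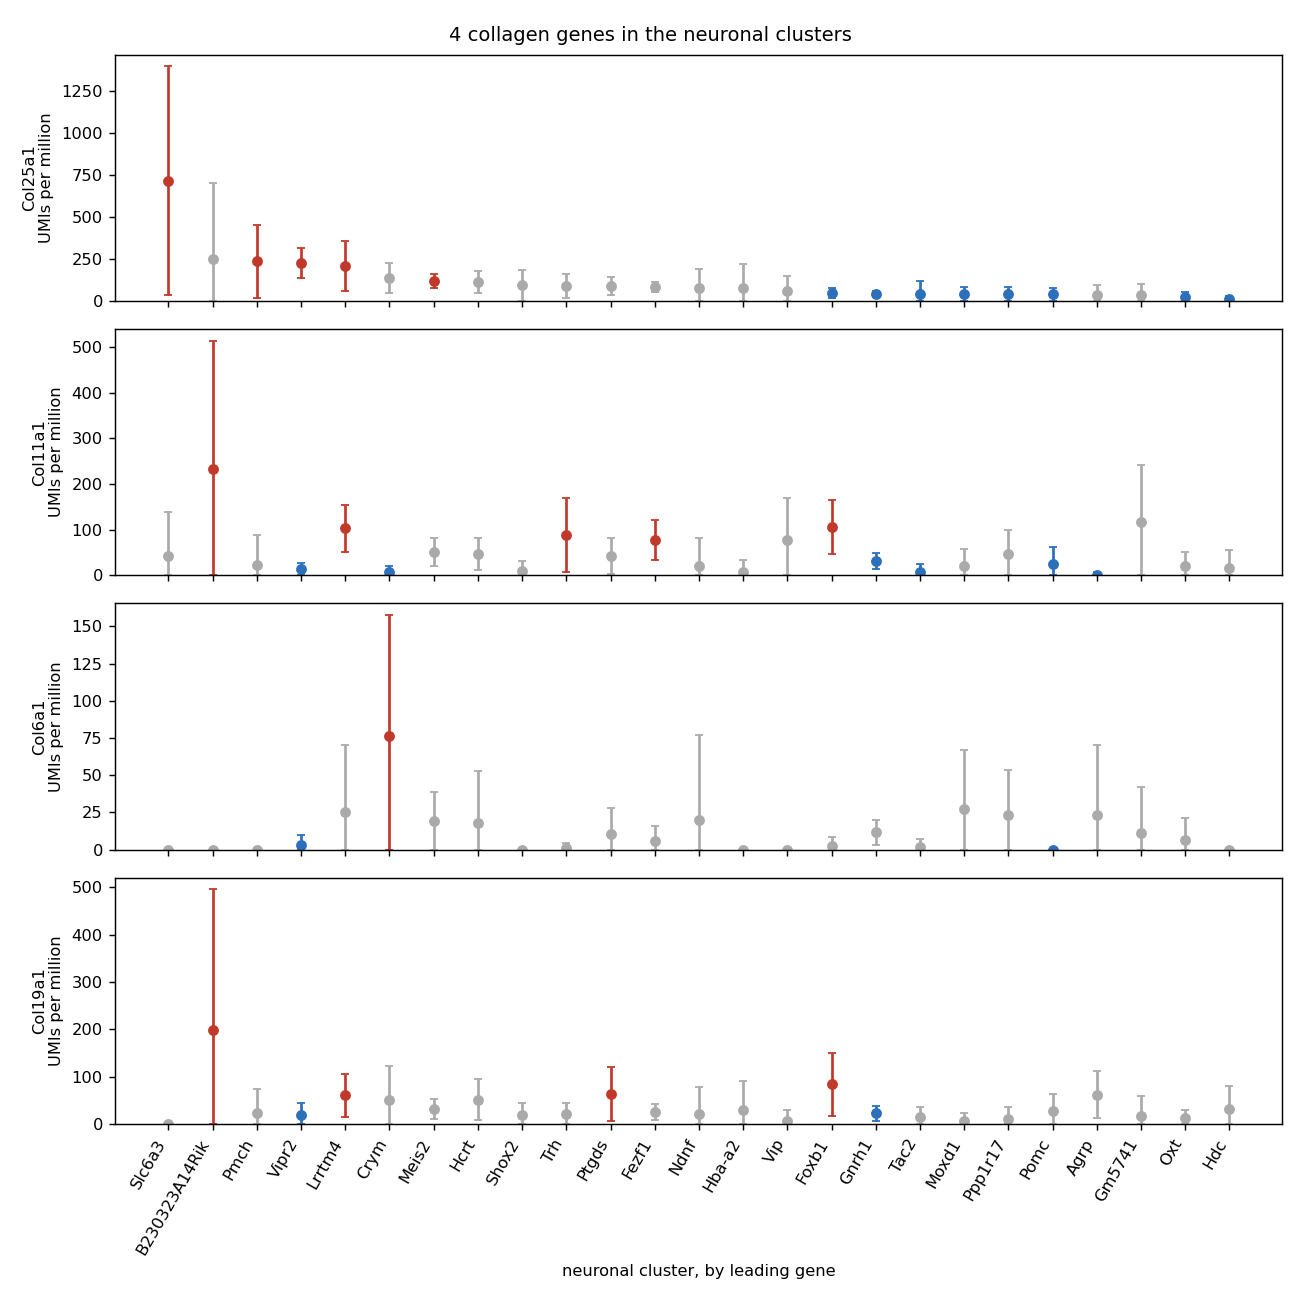
CPM of *Col25a1*, *Col11a1*, *Col6a1* and *Col19a1* by neuronal cluster, as mean ± SD over libraries with error bars ending at 0, red for clusters higher than the other neurons, blue for lower and grey for neither. The high clusters of *Col25a1* and *Col11a1* are different ones apart from the *Lrrtm4*-led cells.

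Collagen genes are often neighbours on the chromosome. The 44 genes lay on 15 chromosomes, and 18 of them formed 10 pairs of neighbours within 500000 bases. *Col4a1* (chr8:11198423-11312826, minus strand) and *Col4a2* (chr8:11312805-11449287, plus strand) start 21 bases apart on opposite strands and overlap by 22 bases. *Col4a3* and *Col4a4* on chromosome 1 start head to head with 71 bases between them, and *Col4a5* and *Col4a6* on the X chromosome with 1308. *Col4a1* and *Col4a2* were both higher in 3 types and both lower in the other 6, so their calls matched in all 9. The other head-to-head pairs matched less closely: *Col4a5* and *Col4a6* were both higher in 2 types, both lower in 2 and opposite in oligodendrocytes, and *Col4a3* and *Col4a4* were both higher in mural cells only. *Col3a1* and *Col5a2*, which lie tail to tail 24614 bases apart, were both higher in fibroblasts and opposite in ependymal cells. *Col6a1* and *Col18a1* were opposite in 3 types, and *Col9a1* and *Col19a1* in 2. Whether reads were assigned by strand is not given in the sources used here, so reads from the 22 shared bases of *Col4a1* and *Col4a2* could be counted for either.

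Promoter windows from 250 bases before to 50 after a RefSeq start (GRCm38.p6) were at hand for 35 of the collagens, 38 windows in all. The head-to-head pair whose calls matched and 2 fibre collagens that were highest in the same cells are printed. Capitals mark the CCAAT box, the GC box (the motif GGGCGG) and the TATA box (the motif TATAAA), each searched for on both strands.
*Col4a1*, chr8:11312777-11313076, minus strand: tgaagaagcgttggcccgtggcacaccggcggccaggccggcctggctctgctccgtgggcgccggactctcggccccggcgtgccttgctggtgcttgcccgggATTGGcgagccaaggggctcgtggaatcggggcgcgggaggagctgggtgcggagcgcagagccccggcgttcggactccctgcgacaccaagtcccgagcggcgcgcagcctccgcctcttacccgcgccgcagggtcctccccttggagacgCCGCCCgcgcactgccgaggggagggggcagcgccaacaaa
*Col4a2*, chr8:11312555-11312854, plus strand: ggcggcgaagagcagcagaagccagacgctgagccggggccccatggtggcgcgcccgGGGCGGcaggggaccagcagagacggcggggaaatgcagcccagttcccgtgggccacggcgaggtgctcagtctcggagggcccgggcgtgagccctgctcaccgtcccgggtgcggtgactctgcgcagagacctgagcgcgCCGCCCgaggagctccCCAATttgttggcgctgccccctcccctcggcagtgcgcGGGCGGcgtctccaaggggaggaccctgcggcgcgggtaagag
*Col1a2*, chr6:4505368-4505667, plus strand: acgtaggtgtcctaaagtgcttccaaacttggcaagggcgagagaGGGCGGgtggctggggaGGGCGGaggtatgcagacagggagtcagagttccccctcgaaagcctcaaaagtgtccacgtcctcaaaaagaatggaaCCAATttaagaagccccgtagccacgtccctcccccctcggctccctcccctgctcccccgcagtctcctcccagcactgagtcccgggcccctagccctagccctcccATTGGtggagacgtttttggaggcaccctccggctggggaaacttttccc
*Col3a1*, chr1:45311288-45311587, plus strand: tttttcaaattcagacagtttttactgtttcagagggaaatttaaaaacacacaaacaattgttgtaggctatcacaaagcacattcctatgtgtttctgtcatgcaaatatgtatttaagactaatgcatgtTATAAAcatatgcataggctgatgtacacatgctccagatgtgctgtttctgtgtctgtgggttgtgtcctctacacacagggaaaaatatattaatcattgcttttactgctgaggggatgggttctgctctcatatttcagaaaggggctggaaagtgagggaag
The windows of *Col4a1* and *Col4a2* share 78 bases, so that a GGGCGG just after each start is the same site read from both sides. The printed window of *Col1a2* holds 2 matches each of CCAAT and GGGCGG and no TATAAA. That of *Col3a1* holds 1 TATAAA and neither of the others, although both genes were highest in fibroblasts. The RefSeq start used for *Col1a2* lies inside the GENCODE gene, which begins at chr6:4504814, and 1 of its CCAAT matches falls at that RefSeq start. What the *Col1a2* window holds or lacks thus depends on the start chosen, and other starts were not searched. GGGCGG was found in 60.5% of the collagen windows and 35.7% of all 32851 windows, CCAAT in 34.2% and 37.4%, and TATAAA in 13.2% and 13.6%. The full estrogen response element, an inverted repeat of GGTCA around any 3 bases, was in 0 collagen windows and 0.07% of all windows, and its one side AGGTCA in 21.1% and 16.3%. These are letter matches in short windows and show no binding.

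The 2 libraries with the higher limit on genes stood apart in the collagens too. Summed over all kept cells, S10 and S11 were both below all 14 other libraries in 18 of the 42 collagens with at least 200 UMIs, and both above them in 0. The same count was not made over all genes, so whether this is particular to collagens was not tested. *Col19a1* was at 2.11 and 2.57 CPM in S10 and S11 and at 21.99 to 51.8 in the others, and *Col22a1* at 1.06 and 0.918 against 7.96 to 23.7. The 18 genes span a median of 140612.5 bases and the other 24 a median of 48231, with overlap (31829 to 468377 and 15938 to 293999). The part of gene length in this difference was not tested. One of these libraries is WT_Oil and the other Esr1cKO_Tamoxifen, so each group comparison below holds at least one of them.

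The groups allow the effect of tamoxifen to be compared in mice with and without the *Esr1* deletion. For the collagens, tamoxifen was compared with oil within each genotype, both effects with each other, and Esr1cKO with wild-type mice under each injection, in each of the 9 types. In these fits 36 collagens were high enough to be tested in at least 1 type, 114 tests per comparison. No collagen (0 of 114 tests) passed the threshold in any of the 5 comparisons by edgeR, and 0 did by DESeq2, without libraries S10 and S11, or with cells of shared barcodes removed. The counts at an unadjusted p under 0.05 were 3 for tamoxifen in wild-type mice, 4 for tamoxifen in Esr1cKO mice, 7 for the interaction, 4 for genotype under oil and 3 for genotype under tamoxifen. These were 2.63%, 3.51%, 6.14%, 3.51% and 2.63% of the collagen tests, beside 3.496%, 3.85%, 5.17%, 5.13% and 3.43% of the tests of all genes in the same order. Over all genes and types, 0% of the tests were called in the first 4 comparisons and 0.00154% (1 of 64932) in the last. The median SE of the collagen log2 fold changes was 0.43 to 0.67. Even a difference well beyond its own SE did not pass. *Col25a1* in neurons, Esr1cKO against wild-type under tamoxifen, was at -0.77 ± 0.20 with adjusted p = 0.697 by edgeR. Differences well above the median SE could thus be missed in a typical collagen at this depth.

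For some of the genes that lead a type, the values behind these tests are given here by group. In fibroblasts *Col1a2* was at 838, 1146 and 1545 CPM in the WT_Oil libraries, 754, 1153, 1582, 1724 and 1859 in WT_Tamoxifen, 1077, 1083, 1119.9 and 1325 in Esr1cKO_Oil and 831, 944, 1168 and 1491 in Esr1cKO_Tamoxifen. The tamoxifen libraries spanned the oil libraries in both genotypes. *Col4a1* in endothelial cells was at 242, 309 and 321 CPM in WT_Oil and 145, 148, 169, 247 and 321 in WT_Tamoxifen. In the Esr1cKO mice it was at 142, 150.3, 184 and 305 under oil and 213, 228, 263 and 284 under tamoxifen. The groups overlapped here as well. *Col4a1* in mural cells was at 279, 329 and 357 in WT_Oil and 0, 166, 212 and 215 in Esr1cKO_Oil, which did not overlap, and the log2 fold change of Esr1cKO against wild-type under oil was -0.69 ± 0.42 (edgeR, adjusted p = 0.997), with the 0 in library S4 resting on 25 cells. Under tamoxifen it was at 92.2, 122, 190.4, 314 and 319.8 in the wild-type and 169, 245, 268 and 387 in the Esr1cKO libraries, with overlap.

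The smallest p over the collagens belonged to *Col25a1* in neurons, Esr1cKO against wild-type under tamoxifen, with a log2 fold change of -0.77 ± 0.20 and an unadjusted p of 0.00107, adjusted p = 0.697 by edgeR. Its levels were 103, 113, 126, 127 and 135 CPM in the 5 WT_Tamoxifen and 48.9, 67.7, 71.2 and 92.4 in the 4 Esr1cKO_Tamoxifen libraries, which did not overlap, and 57.5, 84.9 and 126 in WT_Oil and 80.7, 88.2, 89.4 and 94.04 in Esr1cKO_Oil, which did. The difference fails the correction over all genes. Library S11 was the lowest of these, and the other 3 Esr1cKO_Tamoxifen libraries also lay below the WT_Tamoxifen ones. Within neurons, *Col25a1* was higher in 5 and lower in 8 of 25 tested clusters. The part of the mix of neuronal clusters in the group difference was not tested. The smallest unadjusted p of the other comparisons were 0.0156 for *Col1a2* in endothelial cells (tamoxifen in wild-type mice, -0.89 ± 0.34), 0.0226 for *Col6a1* in fibroblasts (tamoxifen in Esr1cKO mice, -0.93 ± 0.38), and 0.0103 and 0.00989 for *Col11a2* in oligodendrocytes (interaction 1.35 ± 0.47, and genotype under oil -1.02 ± 0.35).

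**Figure D5:**
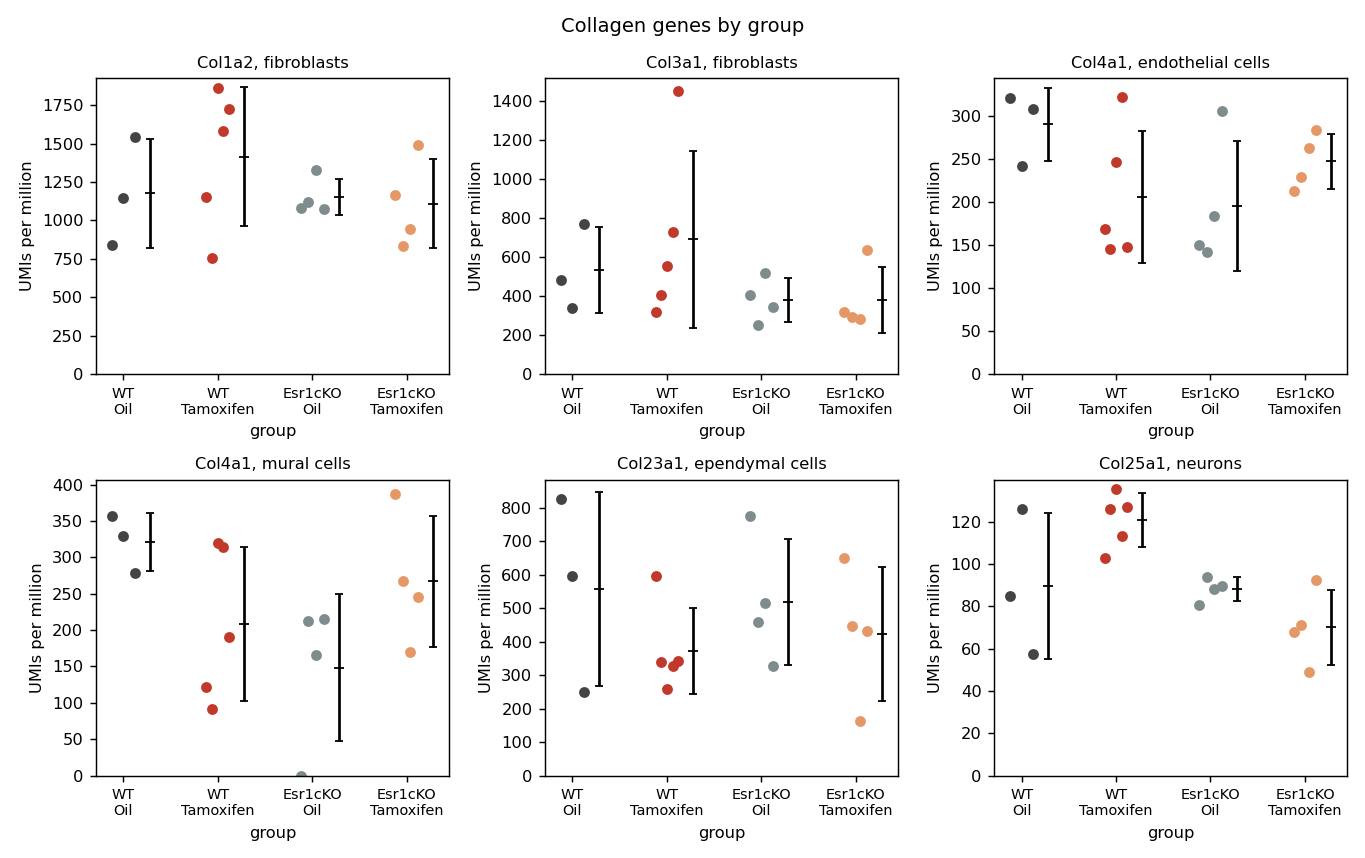
CPM of 6 collagen and cell type pairs in the 4 groups, each point 1 library with the group's mean ± SD. Groups that differ in 1 factor overlap in each panel except that the 4 Esr1cKO_Tamoxifen libraries lie below the 5 WT_Tamoxifen libraries for *Col25a1* in neurons, and the Esr1cKO_Oil below the WT_Oil libraries for *Col4a1* in mural cells.

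The share of fibroblasts among kept cells did not pass a test between groups. They were 1.70% ± 1.02 of kept cells in WT_Oil and 1.77% ± 0.49 in WT_Tamoxifen (SD, n = 3 and 5, exact permutation test, two-sided, p = 0.929, smallest possible 0.0357). In Esr1cKO mice they were 1.99% ± 1.38 under oil and 1.63% ± 0.64 under tamoxifen (n = 4 and 4, exact permutation test, p = 0.8, smallest possible 0.0286). Without library S10 the wild-type difference turned from 0.0718 to -0.372 percentage points, and without S7, which had 4.03% fibroblasts, the Esr1cKO difference turned from -0.357 to 0.325. Fewer cells of a type and less RNA per cell cannot be told apart in a sum over all cells, which is why the tests were made within types. The same limit holds within a type for genes that differ between its finer classes, such as *Col23a1* and *Col25a1* in ependymal cells and fibroblasts. It holds as well for *Col25a1* in neurons, a gene that differed between neuronal clusters. The mix of finer classes and of neuronal clusters was not compared between groups.

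The genes that make, cross-link, bind and break down collagen were followed as 5 lists. In fibroblasts, where 17.6% of all genes were higher, 8 of 12 tested propeptide processing and cross-linking genes were higher and 1 lower, 6 of 9 collagenases and inhibitors were higher and 2 lower, 4 of 9 receptors were higher and 2 lower, and 6 of 16 intracellular enzymes and chaperones were higher and 0 lower. *Pcolce*, which enhances the cleavage of the propeptide of type I collagen, was higher by 6.29 ± 0.15, *Timp1*, an inhibitor of metalloproteinases, by 6.08 ± 0.45 and *Mrc2*, an endocytic collagen receptor, by 5.41 ± 0.18 on the log2 scale. Of the 13 laminins and other basement membrane partners, 11 were higher in endothelial cells (36.1% of all genes), 10 in mural cells (22.3%) and 10 in fibroblasts (17.6%). Mural cells had *Lox*, which cross-links collagen, higher by 3.47 ± 0.35, the laminin chain gene *Lamc3* by 3.43 ± 0.22 and *Nid1*, which links laminin to type IV collagen, by 3.30 ± 0.17. Endothelial cells had the collagen receptor chain *Itga1* higher by 3.92 ± 0.11, the prolyl hydroxylation partner *Crtap* by 3.37 ± 0.09 and the vascular laminin chain *Lama4* by 3.16 ± 0.11. Neurons had 0 of 9 receptors and 1 of 13 basement membrane partners higher, with 8 and 11 lower, where 40.1% of all genes were higher and 40.5% lower. No gene of the 5 lists passed the threshold in a group comparison.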

How the data were processed

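Single-cell suspensions of the hypothalamus of 16 mice, all labelled female, were run on Drop-seq, 1 library per mouse, and the libraries were given to groups by their labels. The authors aligned the reads to mm10 with STAR 2.6, per the labels, and deposited a matrix of UMI counts (whole numbers, not normalized) with gene and barcode lists for each library. The counting program, the annotation and the use of strand are not given in the sources used here. Libraries held 2634253 to 8038158 deposited UMIs and 1717573 to 5457033 in kept cells. Intervals and floors (3 counts) cover counting error only.

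A cell was kept if it had over 200 but under 4000 genes, and mitochondrial UMIs below 15%. They were clustered with Seurat 5.3.0 in R 4.3.3, after canonical correlation alignment of the 4 groups (2000 variable genes per group, 30 dimensions, 20 principal components), at a resolution of 0.05 for types, 0.5 for finer classes and, for neurons, 0.7 with 500 variable genes. No collagen was used for clustering or naming. A cluster took the name of the type with the most markers at a log2 fold over 1 (pseudocount 0.1 on a scale of 10000 UMIs), at least 3 of them with 20 UMIs or more, and no type was named against its leading genes. Doublets, called with Scrublet at an expected rate of 0.05, were removed only in an alternative. For shares of cells with a UMI, cells were also thinned to 500 UMIs.

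UMIs were summed per library and type (at least 10 cells, and 3 per neuronal cluster) and tested with edgeR 4.0.16 (quasi-likelihood, Benjamini-Hochberg over all genes, 0.05), with the library as a block within libraries, and with a mean for each of the 4 groups between them. TMM factors of the tests within libraries came from the UMIs of each arm summed over libraries, chosen because factors per column gave more false calls in simulated data. DESeq2 1.42.0, other scalings, filters, cell sets and left-out libraries were alternatives. The fibroblast clusters led by *Prg4* and *Dcn*, the removal of shared barcodes and factors per column were added after seeing the data. Genes with at least 200 UMIs in kept cells were named with values, and the others by their counts. The members and lists were chosen with earlier results of these data known. Each mouse gave 1 library by its label, so p-values measure the spread between mice together with that of the preparation, taking libraries as independent. The quasi-likelihood test of edgeR also borrows the spread of other genes. Very small p-values thus do not rest on the libraries of that gene alone, and their sizes are not compared between types. In pairs of libraries S13 to S16, cells with the same barcode had log counts correlated at a median r of 0.587 to 0.637. Cells with different barcodes had 0.162 to 0.169. Cells with a shared barcode held 8.14% to 10.0% of the kept UMIs of these 4 libraries. Their independence thus does not hold for those cells, and the cause was not tested.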

Additional observations from a re-analysis of the deposited data

Results flagged for a closer look

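In 57 groups of 4 or 5 libraries a library far from the rest of its group was looked for with Dixon's test, and 7 groups had one, where chance gives about 1 in 20. In the Esr1cKO_Tamoxifen group, 1 library had 635 CPM of *Col3a1* in fibroblasts (the others 280 to 316), 1 had 326 of *Col25a1* in fibroblasts (69.9 to 97.7), and 1 had 34.5 of *Col5a3* in ependymal cells (65.7 to 69.2). In the WT_Tamoxifen group, 1 library had 55.9 CPM of *Col6a1* in fibroblasts (the others 179 to 204), 1 had 95.9 of *Col16a1* in polydendrocytes (51.6 to 61.9) and 1 had 596 of *Col23a1* in ependymal cells (260.2 to 341). Several of these genes differ between finer classes of the type, and the part of the class mix of a library in its value was not tested. Library S7 of the Esr1cKO_Oil group had 4.03% fibroblasts, where the others had 1.14% to 1.57%.

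Outside the compared types, 214 pars tuberalis cells, which carry *Tshb* and *Cga*, held 22 UMIs of *Col28a1*, or 78.9 CPM, where all kept cells had 9.53 CPM. These cells were not compared as a type, although they counted among the other cells of a library in the test of each type. The difference was not tested.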

How the results depend on the processing

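The calls within libraries held best. Of 2883 values of named genes under the alternatives, 2626 kept their direction and their side of the threshold, 8 changed sign and the rest no longer passed. With 1 library left out, 5129 of 5313 kept both and 184 no longer passed. The wild-type oil libraries alone (3 libraries) gave 53 higher calls in place of 109. Among them were 1 in oligodendrocytes, 1 in neurons, 5 in endothelial cells, 8 in ependymal cells, 7 in mural cells and 15 in fibroblasts. The rest were in astrocytes, polydendrocytes and microglia. In that setting the log2 fold change turned to -0.30 for *Col19a1* and -0.13 for *Col22a1* in astrocytes, 0.11 for *Col4a5* in microglia, 0.0619 for *Col1a2* and -0.0142 for *Col9a1* in ependymal cells, and -0.43 for *Col22a1* in mural cells. *Col1a2* in endothelial cells turned to -1.63 with types from resolution 0.5 and *Col27a1* in mural cells to -0.27 in cells with more than 500 genes. The mural count of 14 was 8 with DESeq2 and 8 with DESeq2 size factors in edgeR. The count between finer classes was 23 in place of 13 with no filter on low counts, since more genes were then tested. Thinned to 500 UMIs, 38 of 42 shares of cells moved beyond their interval, which the lower depth sets.

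With 1 library left out at a time, the sum of higher calls was 106 to 111, with 9 to 10 in astrocytes, 8 to 9 in oligodendrocytes, 8 to 10 in polydendrocytes, 7 to 8 in neurons, 11 to 13 in endothelial cells, 3 to 4 in microglia, 16 to 18 in ependymal cells, 13 to 15 in mural cells and 26 to 28 in fibroblasts. The finer classes gave 9 to 14, the fibroblast clusters 9 to 13 and the neuronal clusters 53 to 61. The group comparisons gave 0 to 0. The difference in the share of fibroblasts ran from -0.372 to 0.627 percentage points for tamoxifen in wild-type mice (-0.372 without S10 and S11), from -0.640 to 0.325 in Esr1cKO mice and from -0.252 to 0.218 between genotypes, so none of the 3 had a stable sign, and the cause was not tested. The labels give the groups no shared replicate numbers. Taking successive fours of library numbers as a block, which the labels do not call one, gave 0 in each group comparison. Collagens with few UMIs, types with few cells (mural cells, fibroblasts) and 3 WT_Oil libraries set the limits.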
